A study of Rattus norvegicus with 12 samples.

Results

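The genes of 3 kinds of cell junction were followed in the rat cervix: the claudins and their partners at tight junctions, the cadherins and plaque proteins of desmosomes, and the connexins of gap junctions. E-cadherin (Cdh1), the epithelial adhesion molecule that holds neighbouring cells together at adherens junctions, was included. Members were taken by name alone, as every probe for a claudin (Cldn), desmoglein (Dsg), desmocollin (Dsc), plakophilin (Pkp), zonula occludens scaffold (Tjp) or alpha, beta or gamma connexin (Gja, Gjb, Gjc), together with Dsp, Jup, Ocln, Cdh1, Cgn, F11r and Marveld2. This gave 63 of the 30367 probes on the array, for 58 of 26612 gene names: 21 claudins, 7 other tight junction genes, 13 desmosome genes, 16 connexins and Cdh1. The probe named Gja7 in the files is for the gene now called Gjc1, and that name is used here.

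RNA came from the cervices of 12 adult female Sprague Dawley rats, 1 array per rat and 3 rats in each of 4 groups. Rats were either nonpregnant at proestrus (NP) or at day 21 postbreeding (D21), usually the day before birth. Every cervix was perfused with saline, minced and dispersed into single cells with collagenase B and DNase. In the whole groups (D21 rats 5, 6 and 7, and NP rats 8, 9 and 10) the dispersed cells were frozen at once. In the macrophage-depleted (Mφ-depleted) groups (D21 rats 1, 2 and 4, and NP rats 5, 6 and 7) cells were first incubated with the macrophage antibody ED1 and passed over magnetic beads, and those bound were removed. The depleted cells came from other rats than the whole cells and had passed through more handling, so loss of Mφs and the extra steps cannot be told apart. The samples are mixed suspensions, in which fewer cells of a type and less RNA per cell cannot be told apart either.

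Claudins form the strands that seal the space between epithelial cells, and occludin (Ocln), tricellulin (Marveld2) and junctional adhesion molecule A (F11r) lie with them in the membrane. Scaffolds such as Tjp1, Tjp3 and cingulin (Cgn) tie the strands to actin. In desmosomes, desmogleins and desmocollins span the membrane, and plakoglobin (Jup), plakophilins and desmoplakin (Dsp) anchor them to keratin filaments. Connexins form channels between the cytoplasm of adjoining cells, with Gja1 also known from smooth muscle, Gjb genes mainly from epithelia, and Gja4, Gja5 and Gjc1 from vessel wall. The epithelium of the cervix is both a barrier to ascending microbes and a source of mucus, with a stratified squamous part toward the vagina and a columnar part in the canal.

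Each array measured a gene through probes of 60 bases. In 4 member genes the mapped interval was longer than the probe, so that the probe joined bases from separate parts of the genome, as a spliced RNA does. They are shown because they span such a join, whose place within the probe was not determined (strand of the RNA, intervals in rat build rn4: Cldn7, chr10:56812476-56812646, plus strand; Cldn10, chr15:103779967-103792471, plus strand; Pkp3, chr1:201286627-201286858, plus strand; Cgn, chr2:189645280-189645610, minus strand).
Cldn7: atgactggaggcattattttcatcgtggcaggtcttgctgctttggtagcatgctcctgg
Cldn10: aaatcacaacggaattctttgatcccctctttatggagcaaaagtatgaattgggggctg
Pkp3: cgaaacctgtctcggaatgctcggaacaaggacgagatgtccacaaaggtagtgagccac
Cgn: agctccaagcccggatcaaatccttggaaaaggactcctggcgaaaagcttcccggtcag

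The level of a gene is given throughout as log2 of its processed signal relative to the 75th percentile of the same array, so 1 unit is a 2-fold difference, and levels of different genes are not compared. The scanner software rated 44.9% to 61.7% of the probes of an array as well above background, lowest in depleted NP rat 7. Of the 58 member genes, 30 were well above background on all 12 arrays, 9 on none and 19 on 1 to 11 arrays. Among the 9 were Cldn11, Cldn15, Dsg4, Gja3 and Gjc3. A gene entered a comparison when all 3 arrays of one of its groups, or of both, measured it well above background, and it was called, or said to have risen or fallen, at an unadjusted limma p under 0.01 with at least a 2-fold difference. Adjusted p-values are limma's, corrected over all genes tested in the comparison. Of 14 Mφ markers, 13 were tested in D21 and 11 in NP rats, and 11 and 9 of them were higher in whole than in depleted cells. Of the 14, 5 in D21 and 6 in NP rats were above background in no depleted rat.

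**Figure D1:**
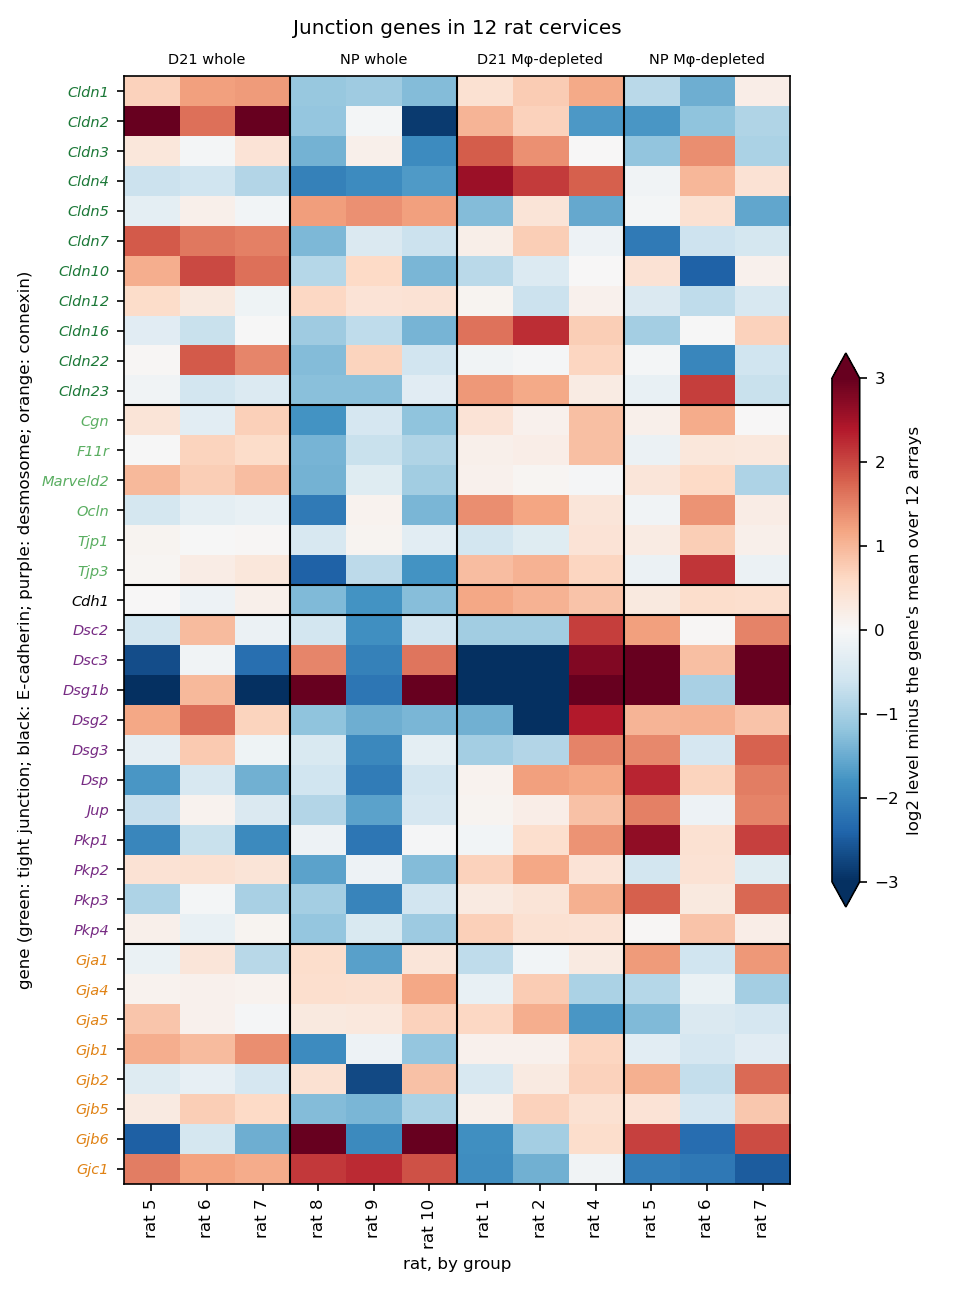
Heat map of 37 junction genes measured well above background in all 3 rats of some group, in 12 rats (columns, by group). Colour is the log2 level minus that gene's mean over the 12 arrays, cut at 3 on either side, and includes values below background. NP whole rats were the lowest for most tight junction genes, and Dsc3, Dsg1b and Gjb6 differed widely between rats of one group.

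Of the 58 members 38 were tested between D21 and NP whole cervix, of which 16 rose, none fell and 22 were not called (percent of all 14059 genes tested: 5.38% rose and 3.11% fell). The 16 were 4 claudins, 5 other tight junction genes, 5 connexins, Cdh1 and Pkp2. After adjustment 13 were higher and none lower (3.9% and 1.9% of all genes), with Cgn, Pkp2 and Tjp3 missing. The unadjusted p was under 0.05 for 1 lower member, Cldn5. The methods' unequal-variance test, which does not draw on the depleted groups, gave 1 lower member. Because a gene low in NP rats could pass through the D21 arrays alone, the fit was repeated on the genes well above background on all 12 arrays alone. Of 30 members in that fit 13 rose and none fell, namely the 12 of these 30 called above and Cldn10, against 4.62% and 1.94% of the 10919 genes of that kind. Their median difference was 1.11, against -0.09 over all those genes.

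**Figure D2:**
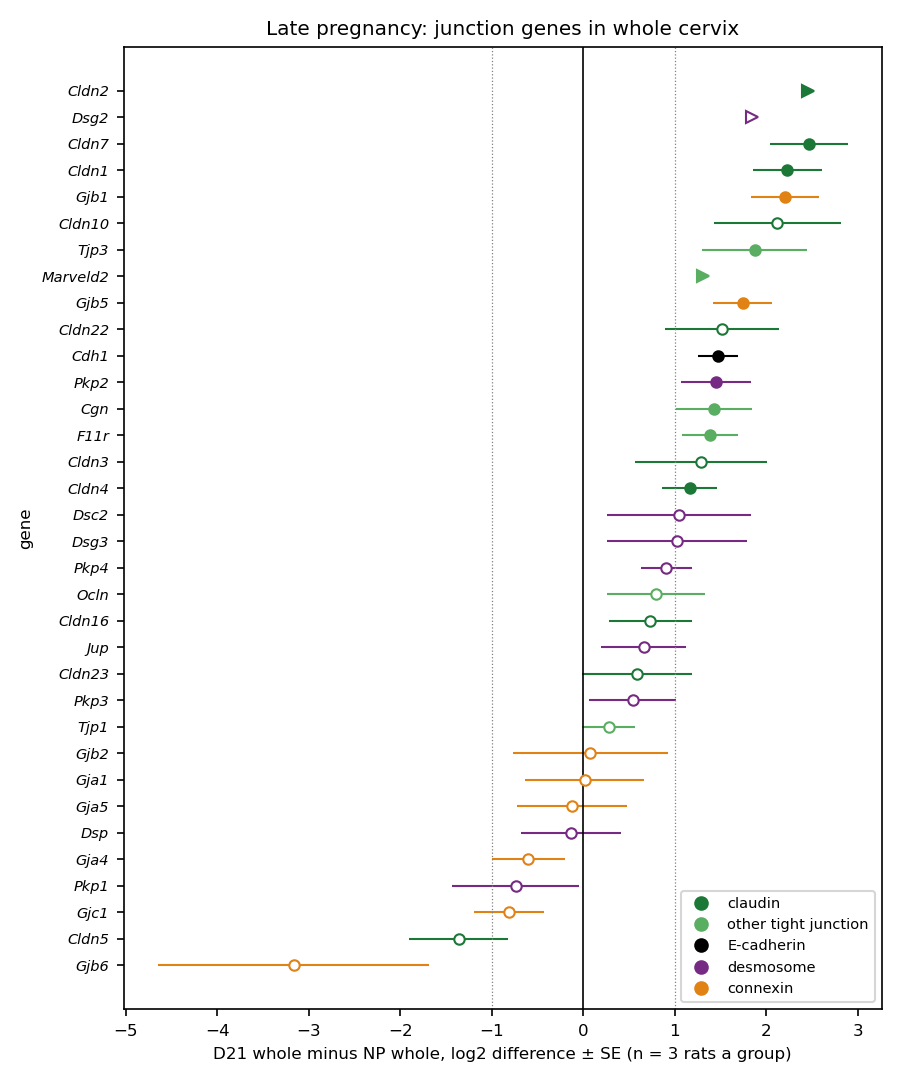
Difference between D21 and NP whole cervix for 34 of the 38 members tested (log2 difference, D21 minus NP, with bars of 1 SE, n = 3 rats a group). Filled points were called at p under 0.01 with at least 2-fold, dotted lines mark 2-fold, and colours give the kind of junction. Arrowheads without bars are lower bounds for Cldn2, Marveld2 and Dsg2, which were not well above background in NP whole rats. All filled symbols lie on the D21 side, with circles from 1.16 for Cldn4 to 2.47 for Cldn7.

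Cldn7, a claudin of columnar and glandular epithelia, had levels of 3.76, 3.51 and 3.44 in the D21 whole rats and 0.56, 1.48 and 1.26 in the NP whole rats. The groups did not overlap, and the difference was 2.47 ± 0.42 (SE), or 5.52-fold (adjusted p = 0.00972, limma). Cldn1, which is needed for the barrier of the skin, stood at 1.80, 2.35 and 2.40 in D21 and at -0.02, 0.06 and -0.18 in NP rats. The NP rats lay close together and well below the D21 rats, and the difference was 2.23 ± 0.37 (adjusted p = 0.00945, limma). Cldn4 was 2.40, 2.46 and 2.16 in D21 rats and 1.03, 1.16 and 1.34 in NP rats, a difference of 1.16 ± 0.30 (adjusted p = 0.0445, limma). Cldn2, which forms channels for cations and water in leaky epithelia, was -1.22, -2.59 and -0.92 in D21 rats and was not well above background in any NP whole rat. Against the lowest signals that counted as above background, the D21 level of Cldn2 was at least 5.48-fold higher. Its adjusted p of 0.0193 (limma) belongs to the fitted difference, which used NP values below background, and not to this bound. Cldn2 entered the comparison through the D21 arrays alone. It was not called under another background correction (normexp) or by the methods' unequal-variance test.

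Other claudins were not called. Cldn3 was 2.70, 2.29 and 2.76 in D21 rats and 0.92, 2.49 and 0.47 in NP rats, where rat 9 alone reached the D21 range (difference 1.29 ± 0.72, adjusted p = 0.315, limma). Cldn10 was 2.05, 2.92 and 2.60 in D21 rats and 0.09, 1.54 and -0.43 in NP rats (difference 2.12 ± 0.70, adjusted p = 0.0988, limma). Cldn5, the claudin of endothelium, ran the other way, at -0.18, 0.28 and 0.03 in D21 and 1.37, 1.48 and 1.36 in NP rats. The groups did not overlap, but its difference of -1.36 ± 0.54 missed the threshold (adjusted p = 0.169, limma). That SE takes in the spread of all 4 groups. The SD of Cldn5 was 0.23 in D21 whole and 0.07 in NP whole rats. It was 1.05 in depleted D21 and 1.04 in depleted NP rats. The missed threshold therefore does not show that Cldn5 was unchanged between D21 and NP whole cervix. Cldn11, a claudin of myelin and of Sertoli cells, stayed near background in all 12 rats.

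Of the other tight junction genes, 5 of 7 rose in D21 whole cervix. F11r was 2.44, 3.1 and 3.01 in D21 rats and 1.05, 1.79 and 1.55 in NP rats (difference 1.39 ± 0.31, adjusted p = 0.0264, limma). Marveld2, which seals the corners where 3 cells meet, was -2.35, -2.57 and -2.39 in D21 rats. It was not well above background in NP whole rats, which puts D21 at least 2.48-fold higher. Its adjusted p of 0.0228 (limma) likewise belongs to the fitted difference and not to the bound. Marveld2 too was not called under normexp or by the methods' unequal-variance test. Tjp3 and Cgn differed by 1.87 ± 0.57 and 1.43 ± 0.41, with adjusted p-values of 0.08 and 0.0678 (limma). The members not called were Ocln, at -0.97, -0.74 and -0.67 in D21 and -2.57, -0.36 and -1.84 in NP rats, and Tjp1, at 1.64, 1.55 and 1.60 in D21 and 1.07, 1.64 and 1.24 in NP rats. For both, NP rat 9 reached or passed the D21 values. Cdh1 itself was 2.49, 2.34 and 2.63 in D21 rats and 1.15, 0.68 and 1.20 in NP rats, a difference of 1.48 ± 0.22 or 2.78-fold (adjusted p = 0.00599, limma).

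The windows from 250 bases before to 50 bases after the starts of members, whether they rose or not, were searched for 2 motifs. The RefSeq table (build GRCr8) held 43 windows for 42 of the 58 members, 7 of them among the 16 genes that rose. The E-box of zinc finger repressors of epithelial genes, CACCTG, which reads CAGGTG on the other strand, was in 16 of the 43 member windows (37.2%) and in 18.8% of all 33469 windows. The core of the grainyhead-like site, AACCGG, which reads CCGGTT on the other strand, was in 6 of 43 (14%) and in 7.04% of all windows. Each was found in 3 of the 7 windows of genes that rose. A match is a string of letters and says nothing of whether a factor was bound. The 250 bases before the start are shown for Cldn7 and F11r, which held both motifs, and for Cgn, which held the second, with matches in capitals (Cldn7, chr10:55188420-55188669, plus strand; F11r, chr13:86405979-86406228, plus strand; Cgn, chr2:185023636-185023885, minus strand). In the Cldn7 window 4 E-boxes lay before the start, and one of them followed the grainyhead-like match without a gap.
Cldn7: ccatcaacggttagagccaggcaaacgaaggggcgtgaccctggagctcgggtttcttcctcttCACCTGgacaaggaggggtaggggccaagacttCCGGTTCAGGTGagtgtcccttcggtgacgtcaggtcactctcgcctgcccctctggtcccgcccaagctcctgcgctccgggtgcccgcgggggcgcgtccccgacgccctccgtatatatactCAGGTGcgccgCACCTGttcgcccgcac
F11r: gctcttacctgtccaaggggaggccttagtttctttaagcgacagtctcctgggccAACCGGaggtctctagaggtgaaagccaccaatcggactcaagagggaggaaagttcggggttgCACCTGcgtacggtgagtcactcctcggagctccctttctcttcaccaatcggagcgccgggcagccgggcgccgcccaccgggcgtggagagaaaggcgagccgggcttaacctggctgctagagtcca
Cgn: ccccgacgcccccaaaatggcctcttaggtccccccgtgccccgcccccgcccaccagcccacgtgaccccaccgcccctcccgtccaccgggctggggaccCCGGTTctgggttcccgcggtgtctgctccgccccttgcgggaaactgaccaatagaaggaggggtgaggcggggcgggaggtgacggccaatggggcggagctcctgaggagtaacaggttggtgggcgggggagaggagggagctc

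The connexins were divided. Of 16, 11 were tested and 5 rose, among them Gjb1 and Gjb5. Gjb1, the main connexin of hepatocytes and also found in glands, was 0.01, -0.14 and 0.31 in D21 rats and -2.97, -1.23 and -2.25 in NP rats (difference 2.21 ± 0.37, adjusted p = 0.00956, limma). Gjb5 was -0.48, -0.00 and -0.14 in D21 rats and -2.04, -2.11 and -1.69 in NP rats (1.74 ± 0.33, adjusted p = 0.014, limma). For neither gene did the groups overlap.

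The best known connexins of the uterus and skin did not separate the groups. Gja1 was 1.49, 2.07 and 0.86 in D21 rats and 2.23, 0.08 and 2.06 in NP rats. Gjb2 was 3.64, 3.79 and 3.53 in D21 rats and 4.50, 1.32 and 4.91 in NP rats. In each, NP rat 9 lay below the D21 rats while NP rats 8 and 10 lay at or above most of them. Gjc1 was -0.15, -0.47 and -0.56 in D21 rats and 0.44, 0.57 and 0.23 in NP rats (difference -0.81 ± 0.38, adjusted p = 0.238, limma), and was not called.

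Among the 13 desmosome genes 9 were tested and Pkp2 rose (1.45 ± 0.39, adjusted p = 0.0507, limma). Pkp2 is the plakophilin of simple epithelia and heart, and stood at 1.07, 1.11 and 1.04 in D21 rats and at -0.96, 0.48 and -0.67 in NP rats. Dsg2, the desmoglein of simple epithelia, was -2.10, -1.58 and -2.59 in D21 rats and was not well above background in NP whole rats, which makes it at least 3.59-fold higher. It was not called (adjusted p = 0.179, limma), and its level in the depleted D21 rats, -4.71, -6.60 and -0.87, spread widely. Dsp was 2.86, 4.14 and 3.16 in D21 rats and 4.02, 2.50 and 4.03 in NP rats, which overlapped. Jup and Dsc2 also overlapped between groups (differences 0.66 ± 0.46 and 1.05 ± 0.79, adjusted p = 0.422 and 0.456, limma). The plakophilins of stratified epithelia, Pkp1 and Pkp3, were not called either, with Pkp1 at 1.83, 3.13 and 1.88 in D21 and 3.65, 1.63 and 3.76 in NP rats.

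Other genes moved with these members. Of 11 epithelial markers that are no junction genes, 9 rose in D21 whole cervix and none fell (median difference 1.61), and log2 of their summed level ran from 7.78 to 8.19 in D21 and from 5.69 to 6.42 in NP whole rats. All 11 were well above background on every array. Epcam, an epithelial surface protein, differed by 1.66. Of 8 stratified squamous markers, 7 were tested, none rose and Krt4 fell by 3.38 on the log2 scale, and their summed level ran from 8.11 to 8.89 in D21 and from 7.78 to 9.05 in NP whole rats. Ivl, a late marker of squamous cells, did not rise above background in any rat. Of 24 other tight junction and polarity genes tested (26 on the array), 8 rose and 1 fell. Those that rose included Marveld3, of the same family as Marveld2, by 1.85. Others were Ildr1 by 2.32, Lsr by 1.88, and the polarity genes Crb3 by 1.19 and Prkcz by 1.54. Of 11 other desmosome and hemidesmosome genes 1 rose, and of 9 other adherens junction genes tested 2 rose and 1 fell. The part of the epithelial marker difference in that of the junction genes was not tested.

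The 6 whole arrays were scanned on 1 day but lay on 2 slides, one with D21 rats 5, 6 and 7 and NP rat 10 and the other with NP rats 8 and 9. Within the first slide the smallest difference among the 16 called members was 1.00, for Cldn4. Their direction there was given in advance, since D21 and NP whole rats overlapped for none of the 16, so it is no check on slide. With slide as a block, a fit in which depleted D21 rat 1 has a slide of its own and drops out, 8 members rose and 1, Cldn5, fell (-1.31).

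**Figure D3:**
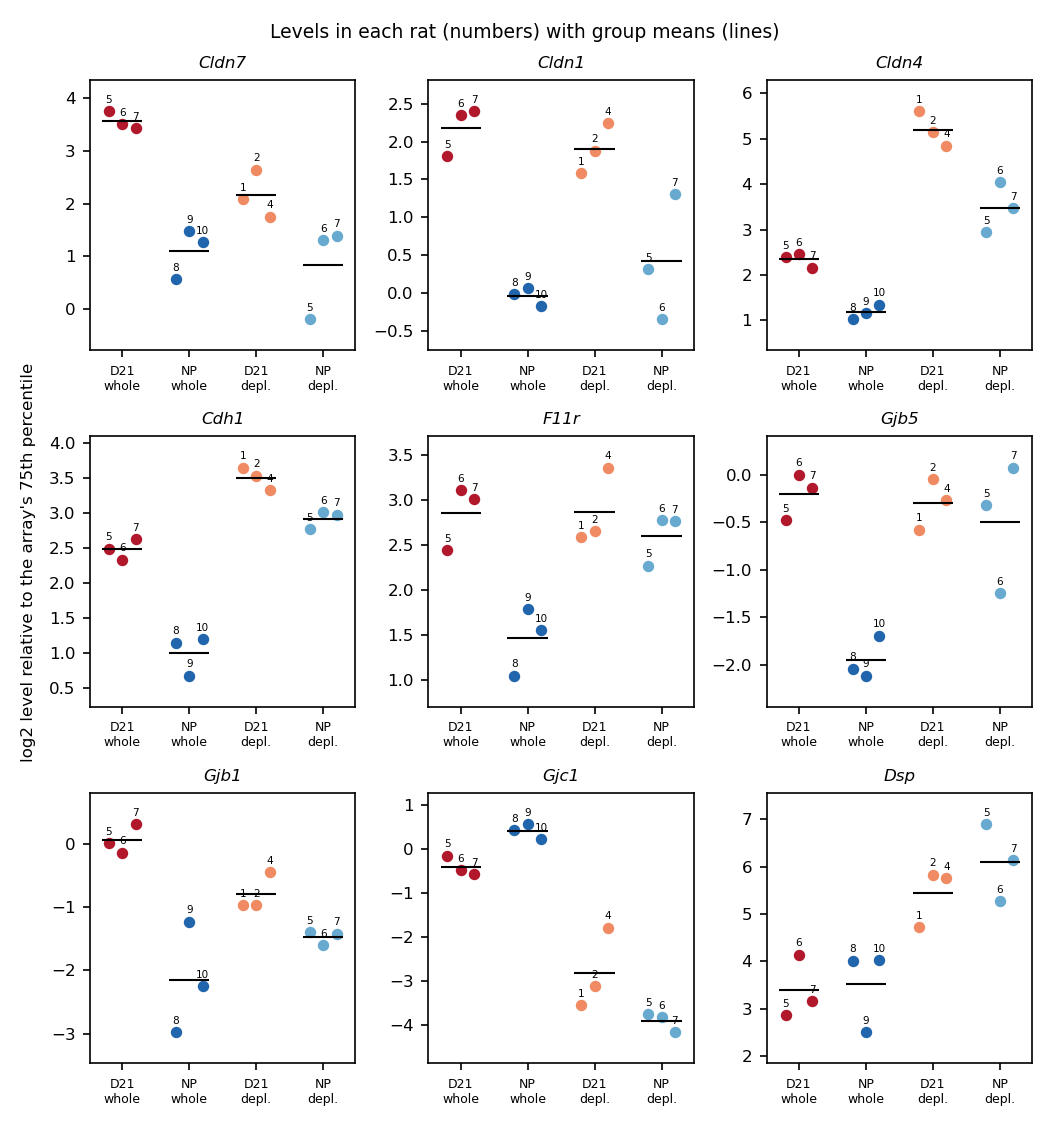
Log2 levels of 9 members in each of the 12 rats, with rat numbers beside the points and group means as lines (n = 3 rats a group). Cldn7 was highest in D21 whole rats, Cldn4 and Cdh1 were highest in the depleted groups, F11r and Gjb5 were lowest in NP whole rats, and Gjc1 was lower in both depleted groups.

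The second pair of comparisons asked how the cells left after Mφ removal differed from whole cervix. In NP rats 37 members were tested, of which 14 were lower in whole than in depleted cells and 2 were higher (all 13413 genes tested: 10.8% lower and 13.6% higher). In the fit limited to genes measured on every array 14 of 30 members were lower and 2 higher. These were the 13 and 1 of the 30 called above with Ocln and Cldn5 added, against 10.6% and 8.58% of such genes. After adjustment 15 were lower and 3 higher (15.8% and 17% of all genes). Of the 14, 5 were desmosome genes, 4 other tight junction genes, 3 connexins, 1 a claudin and 1 Cdh1. NP whole rats are the same arrays in this comparison and in the one with D21 whole rats, so these comparisons are not independent of each other.

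Dsp was 4.02, 2.50 and 4.03 in NP whole rats and 6.90, 5.27 and 6.13 in depleted NP rats, a difference of -2.59 ± 0.55 (whole minus depleted), or 6.00-fold lower in whole cells (adjusted p = 0.00412, limma). Jup was 4.05, 3.32 and 4.43 in whole and 6.43, 4.79 and 6.42 in depleted cells (whole minus depleted -1.95 ± 0.46, adjusted p = 0.00789, limma). Pkp3 was 0.69, -0.26 and 1.14 in whole and 3.50, 2.01 and 3.45 in depleted cells (-2.46 ± 0.48, adjusted p = 0.00244, limma). Pkp1 and Pkp4 were lower too, with differences of -2.50 ± 0.69 and -1.27 ± 0.28 (adjusted p = 0.0173 and 0.00523, limma). Whole and depleted rats did not overlap for any of these 5 genes, but the gaps were small for Jup, from 4.43 in whole rat 10 to 4.79 in depleted rat 6, and for Pkp1, from 3.76 to 4.24 in the same rats. Pkp1 was not called without whole rat 9, where it differed by -1.81, nor without depleted rat 5 (-2.03) or depleted rat 7 (-2.34).

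Cldn4 was 1.03, 1.16 and 1.34 in whole NP cells and 2.95, 4.04 and 3.47 after depletion, a difference of -2.31 ± 0.30 (adjusted p = 0.000168, limma). Cdh1 was 1.15, 0.68 and 1.20 against 2.77, 3.01 and 2.97 (-1.91 ± 0.22, adjusted p = 7.18e-05, limma). Tjp3, Cgn and F11r were also lower in whole cells, with differences of -2.26, -1.60 and -1.14, as was Gjb5, with -1.45. Gjc1 had the largest difference of the members tested between these groups, at 0.44, 0.57 and 0.23 in whole and -3.76, -3.82 and -4.17 in depleted NP cells, where 1 of the 3 rats was not well above background. It was higher in whole cells by 4.33 ± 0.38 (adjusted p = 1.32e-05, limma). Gja4, a connexin of arterial endothelium, was also higher, by 1.41 ± 0.40 (adjusted p = 0.0188, limma).

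In D21 rats 39 members were tested, of which 4 (10.3%) were lower and 3 (7.69%) higher in whole cells, shares near those of all 14256 genes tested, 7.74% lower and 10.1% higher. After adjustment 5 were lower and 3 higher (10.6% and 11.9% of all genes), and in the fit limited to genes measured on every array 4 of 30 members were lower, with Pkp1 added to 3 of those called, and 1 higher (8.38% and 6.67% of such genes). Cldn4 was 2.40, 2.46 and 2.16 in whole D21 cells and 5.61, 5.14 and 4.84 in depleted cells, a difference of -2.86 ± 0.30, or 7.24-fold lower in whole cells (adjusted p = 0.000186, limma). Dsp was 2.86, 4.14 and 3.16 against 4.72, 5.83 and 5.76 (-2.05 ± 0.55, adjusted p = 0.0245, limma). Cldn16, a claudin of the kidney tubule, was -2.76, -3.08 and -2.43 against -0.78, -0.19 and -1.66 (-1.88 ± 0.45, adjusted p = 0.0172, limma). Cdh1 was 2.49, 2.34 and 2.63 against 3.64, 3.53 and 3.33 (-1.02 ± 0.22, adjusted p = 0.0104, limma), just past 2-fold, and at -0.94 it fell short of that without whole rat 6 or without depleted rat 1.

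The 3 members higher in whole D21 cells were Gjc1, Cldn2 and Cldn7. Gjc1 was -0.15, -0.47 and -0.56 in whole and -3.55, -3.12 and -1.78 in depleted D21 cells (2.42 ± 0.38, adjusted p = 0.00221, limma). Cldn7 was 3.76, 3.51 and 3.44 against 2.09, 2.65 and 1.75 (1.41 ± 0.42, adjusted p = 0.0373, limma), the reverse of Cldn4 in the same rats. Cldn2 was -1.22, -2.59 and -0.92 against -3.22, -3.55 and -5.96 (2.67 ± 0.80, adjusted p = 0.0374, limma). Only 2 of the 3 depleted rats measured Cldn2 well above background, so the size of its difference is uncertain. Over the other ways of processing it ran from 0.58 to 5.79, and 7 of 11 kept the call. Without whole rat 5 or without whole rat 7 only 1 of the 3 was called, Gjc1, with Cldn7 at 1.31 and 1.47 and Cldn2 at 2.49 and 2.34. The same held without depleted rat 4, with Cldn7 at 1.20 and Cldn2 at 1.81. Cldn7 was also not called without whole rat 6 or without depleted rat 1, and it kept its call in 7 of 12 fits with a rat left out.

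**Figure D4:**
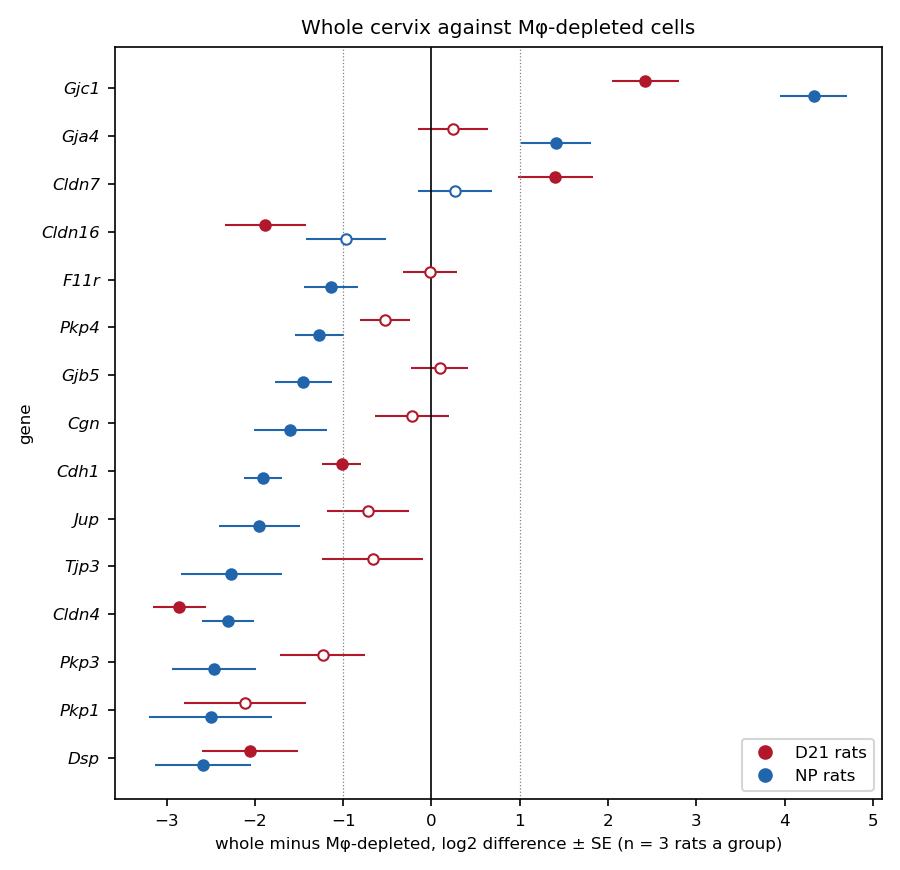
Whole minus Mφ-depleted difference in D21 rats (red) and NP rats (blue) for 15 members called in either (log2 difference with bars of 1 SE, n = 3 rats a group). Filled points were called and open points were not, and dotted lines mark 2-fold. Dsp, Cldn4 and Cdh1 were lower in whole cells of both, and Gjc1 was higher in both.

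The difference between these differences was tested in 41 members. It passed in 5 before adjustment, 4 with a higher value in D21 (2.44% of all 14568 genes) and 1 with a lower value (4.99%), and in none after adjustment (limma, with 10 higher and 1 lower at an unadjusted p under 0.05), where 0.439% of all genes had a higher and 1.96% a lower value. In the fit limited to genes measured on every array, 3 of 30 members had a higher and none a lower value (2.45% and 4.07% of such genes). For Gjb5 the whole minus depleted difference in D21 exceeded that in NP rats by 1.54 ± 0.46 (adjusted p = 0.11, limma). Marveld2 also passed, but no size is given for it, since it was not well above background in any NP whole rat. Gjc1 was the one in the other direction, at -1.91 ± 0.54 (adjusted p = 0.0956, limma). The other genes called in one state and not in the other did not pass even before adjustment. The data do not show that D21 and NP rats differed in those genes.

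The 2 preparations differed in much besides Mφs. Of 9 smooth muscle markers tested, 6 were higher in whole than in depleted cells of D21 rats (median difference 2.08) and all 9 in NP rats (4.59). Of 10 fibroblast markers, 5 and all 10 were higher in whole cells (median 1.32 and 4.28). Of 7 stratified squamous markers tested, 3 in D21 and 5 in NP rats were lower in whole cells (median -2.10 and -2.31), and of 11 epithelial markers 2 and 7 were lower. The log2 summed level of the squamous list ran from 9.35 to 9.97 in depleted D21 and from 9.63 to 10.3 in depleted NP rats, and that of the epithelial list from 8.08 to 8.43 and from 7.13 to 7.73. For smooth muscle it ran from 8.19 to 8.64 and from 8.76 to 9.42 in whole D21 and NP rats, and from 5.48 to 7.32 and from 4.42 to 4.84 in depleted ones. For fibroblasts it ran from 8.84 to 9.41 and from 9.14 to 9.44 in whole rats, and from 8.33 to 8.90 and from 4.17 to 5.96 in depleted ones. The 8 immediate-early genes tested were all lower in whole cells in both states. The mean level per rat of all 10 such genes on the array, 3 of which were above background in no D21 whole rat and 3 in no NP whole rat, lay between -1.41 and -0.71 in whole and between 0.89 and 2.14 in depleted cells. The hemidesmosome gene Col17a1, which anchors basal keratinocytes, was lower in whole cells, with differences of -3.02 in D21 and -3.61 in NP rats. How much of the junction gene differences goes with these lists was not tested.

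Slides and scan days were not balanced over the preparations: the whole arrays and depleted rats D21 4 and NP 7 were scanned on 1 day, and the other 4 depleted arrays on other days. On that day the 4 lower members of D21 rats differed by -2.50 to -0.84 (whole minus depleted), and the 14 of NP rats by -3.02 to -1.09. Their direction was given in advance, since whole and depleted rats overlapped for none of these members, so it is no check on scan day. With scan day as a block, which also drops depleted D21 rat 1, 2 members, Cldn4 (-2.58) and Dsp (-2.41), were lower in D21 whole cells.

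The last comparison asked how D21 and NP rats differed once Mφs were removed. Of 37 members tested, 5 were higher in depleted D21 cells and none lower (all 13403 genes tested: 5.44% higher and 2.07% lower), and 4 of the 5 were claudins. After adjustment 2 were higher and none lower (3.63% and 0.992% of all genes), and in the fit limited to genes measured on every array 4 of 30 members were higher and none lower (4.13% and 2.04%). The unadjusted limma p was under 0.05 for 1 lower member, Dsc3, and the methods' unequal-variance test gave no lower member. Cldn4 was 5.61, 5.14 and 4.84 in depleted D21 cells and 2.95, 4.04 and 3.47 in depleted NP cells, 1.71 ± 0.30 higher (adjusted p = 0.00737, limma). Cldn1 was 1.58, 1.88 and 2.24 against 0.32, -0.35 and 1.31 (1.48 ± 0.37, adjusted p = 0.0477, limma). Cldn16 and Cldn7 were higher by 1.65 and 1.33 but missed the adjusted threshold (adjusted p = 0.0668 and 0.107, limma). Cldn1, Cldn4 and Cldn7 were higher in D21 in both preparations, which share no rats. Cldn7 was not stable, since without depleted NP rat 5 its difference was 0.82 and it was not called.

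Leaving out depleted NP rat 5 or depleted D21 rat 2 left 2 of the 5 called, and leaving out depleted D21 rat 1 left 3. Among the 5, the 2 depleted rats of slide 1, D21 4 and NP 7, differed by as little as 0.06, and the 3 of slide 3 by 1.65 to 2.73. The direction within a slide was given in advance, since depleted D21 and NP rats overlapped for none of the 5. Fibroblast markers were 2.77 higher as a median in depleted D21 than in depleted NP cells, with 9 of 10 called, and smooth muscle markers were 1.47 higher, with 6 of 8 called. Epithelial markers differed by a median of 0.54, with 1 of 11 called.

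Within groups, rats differed widely in desmosomal cadherins of stratified epithelium and in Gjb6, a connexin of skin. These genes were picked out after their values were seen. Dsg1b, the desmoglein of the upper epidermis, was 1.98 and 2.18 in NP whole rats 8 and 10 and -4.01 in rat 9. In depleted NP cells it was 2.27 and 2.76 in rats 5 and 7 and -2.82 in rat 6, and in depleted D21 cells it was 2.28 in rat 4 and -7.33 and -6.90 in rats 1 and 2. Dsc1 split the NP rats in the same way, at 1.35 and 2.30 in rats 8 and 10 against -5.50 in rat 9 among whole cells, and at 0.71 and 0.21 in rats 5 and 7 against -6.29 in rat 6 among depleted cells. Gjb6 was 2.25 and 2.74 in rats 8 and 10 and -2.91 in rat 9, and it was 1.05 and 0.96 in depleted rats 5 and 7 and -3.28 in rat 6. In D21 whole rats Gjb6 was -3.44, -1.52 and -2.45, and its difference from NP of -3.16 ± 1.48 was not called (adjusted p = 0.235, limma) but was -4.97 and called without NP rat 9.

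**Figure D5:**
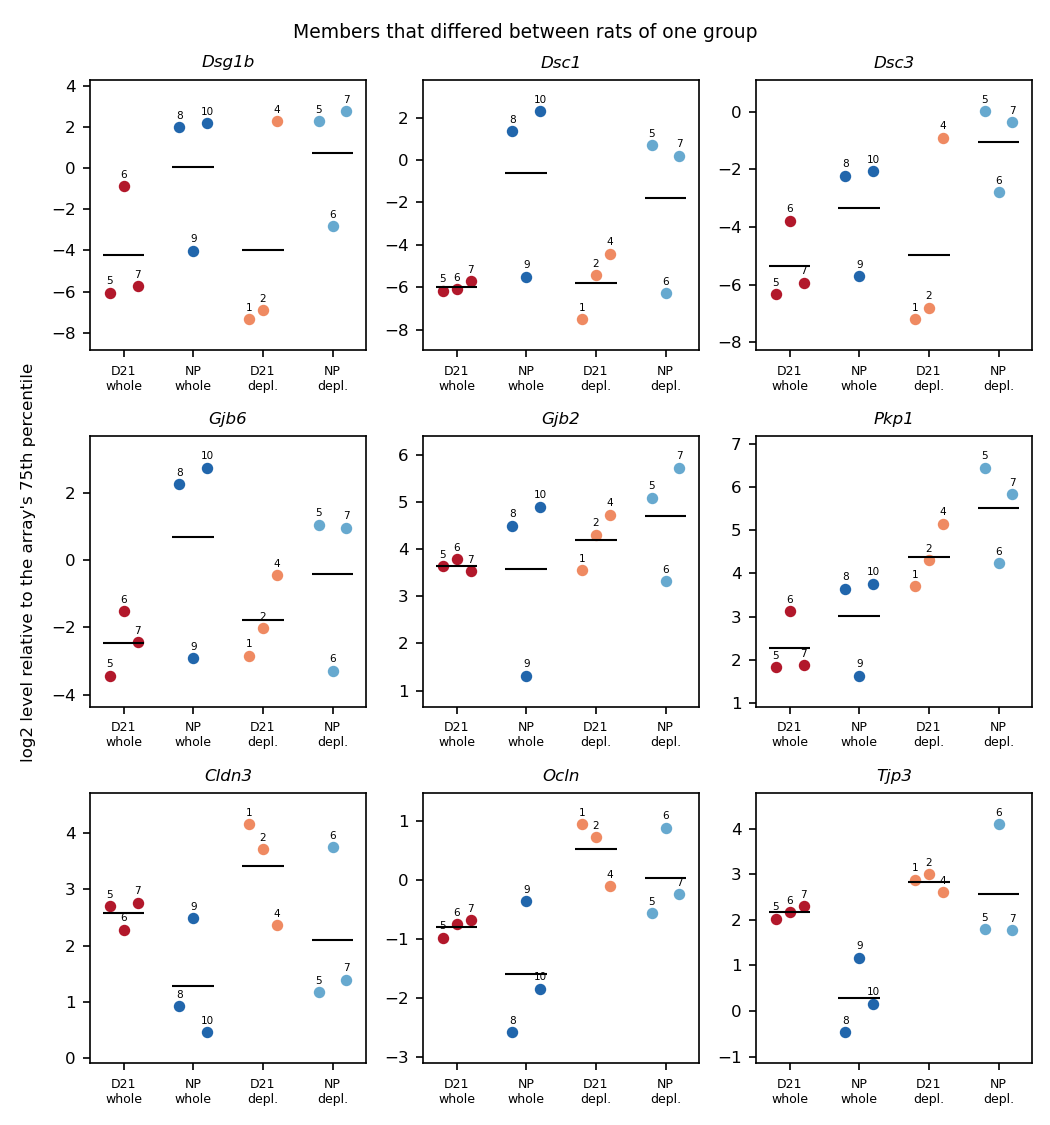
Log2 levels of 9 members that differed between rats of one group, with rat numbers beside the points and group means as lines. Dsg1b, Dsc1, Dsc3, Gjb6, Gjb2 and Pkp1 were lowest in NP rats 9 (whole) and 6 (depleted), and Cldn3, Ocln and Tjp3 were highest in those 2 rats of their groups.

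NP whole rat 9 and NP depleted rat 6 had the highest values of their groups for all 5 tight junction genes other than claudins that every array measured. Among 8 claudins, rat 9 was the highest for 6 and the lowest for none, and depleted rat 6 the highest for 4 and the lowest for 3. Cldn3 was 2.49 in NP rat 9 and 0.92 and 0.47 in rats 8 and 10, and it was 3.75 in depleted rat 6 and 1.18 and 1.40 in rats 5 and 7. Tjp3 was 1.17 in rat 9 and -0.46 and 0.17 in the other two, and 4.10 in depleted rat 6 and 1.80 and 1.78 in the others. Of 30 members measured on every array, rat 9 had the lowest value of the 3 NP whole rats for 13 and the highest for 13, and depleted rat 6 the lowest for 15 and the highest for 13. The squamous marker Trim29 was 1.23 in rat 9 against 3.24 and 3.20 in rats 8 and 10, and 3.72 in rat 6 against 5.43 and 5.44 in rats 5 and 7. The epithelial marker Epcam was 3.51 in rat 9 against 2.25 and 3.02, and 4.32 in rat 6 against 3.79 and 4.24. Trim29 and Epcam were picked from lists of 8 and 11 markers, and the other markers were not counted for this split. With 3 rats a group no test was made of it.

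Across the 4 groups, the 30 members measured on every array had their lowest mean in NP whole cervix in 22 cases. Their highest was in a depleted group in 21, 10 in D21 and 11 in NP. The same was not counted over all genes measured on every array, so whether these counts are particular to junction genes is not known. All 5 tight junction genes other than claudins had their lowest mean in NP whole cervix, as did 6 of 8 desmosome genes and 6 of 8 connexins. The highest mean of a desmosome gene was in depleted NP cells for 6 of 8 and in depleted D21 cells for the other 2. Claudins were split, with 4 of 8 highest in D21 whole cervix, 3 in depleted D21 cells and 1, Cldn5, in NP whole cervix.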

How the data were processed

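RNA was amplified from poly(A) and hybridised by the authors to 1-colour Agilent rat arrays, 1 rat each, and scanned with Agilent Feature Extraction 9.5.3.1, per the file headers. The authors deposited scanner files holding spot intensity (background-corrected processed signal) and a table of normalized ratio values, each array's signal over its own 75th percentile. Its log2 values correlated with those from the scanner files at 0.9964 or more, and it served as an alternative. No deposited column was left without a sample. Probe names are those of the array's design, and 53 of 63 member probes matched RefSeq.

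Levels were log2 of the processed signal minus log2 of the array's 75th percentile. Spots of a probe were averaged, control spots and outlier flags were left out, and the brightest probe stood for a gene with several (5 genes). One limma fit (limma 3.58.1, R 4.3.3) held all 12 arrays with 4 group means and no covariate, and its code was tested on simulated data. Genes were called at an unadjusted p under 0.01 with at least 2-fold, and adjusted p-values are Benjamini-Hochberg's over all genes tested. Where no rat of a group measured a gene above background, the fold is a lower bound, taken against the dimmest probe that each array rated above background. Replicates were separate rats, and with 3 arrays a group their number limits the precision. Alternatives were the methods' t-test (unequal variances), the adjusted threshold, normexp correction (offset 50), quantile normalization, the percentile over detected probes, other background filters, averaging a gene's probes, blocks for slide or scan day, the deposited values, and each rat left out. Fitting only the genes measured on all 12 arrays was chosen after seeing the data. Members and lists were chosen with earlier results of these data known. Genes named are those called in any comparison, a fixed set of 24, some of either not reported here, and, in the account of rat-to-rat differences, genes picked after their values were seen. Protein sequences were not used here.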

Additional observations from a re-analysis of the deposited data

Results flagged for a closer look

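In 3 of the genes described here, the whole minus depleted difference in D21 was called different from that in NP rats (limma contrast, unadjusted p under 0.01 and at least 2-fold). None passed after adjustment over all genes. With a rat left out, the call held in 4 of 12 fits for Gjb5, 7 of 12 for Gjc1 and 2 of 12 for Marveld2. Over the other settings it held in 6 of 11, 6 of 9 and 4 of 9. The excess in D21 over NP rats was 1.543 on the log2 scale for Gjb5 (SE 0.4622, adjusted p = 0.1099, limma). For Gjc1 it was -1.905 (SE 0.5417, adjusted p = 0.09556, limma). For Marveld2 the fitted value was 1.778, which is not a measured size because the gene was not well above background in any of the 3 NP whole rats.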

How the results depend on the processing

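The deposited values and averaging a gene's probes changed no call among the 71 gene results computed. With slide as a block 46 of 71 kept their call, 22 lost it, 2 gained one and 1 turned, Pkp3 in D21 against NP whole cervix, at -0.075 and called in neither. Slide gave 8 higher and 1 lower member in D21 against NP whole cervix, 1 lower in whole than depleted D21 cells, 3 higher in depleted D21 than NP cells, and 1 higher and 3 lower in the difference of the differences. Scan day gave 1 lower, 2 lower, 3 higher and 2 lower in the same places. The methods' t-test at their threshold gave 9 higher and 1 lower member in D21 whole cervix, 1 higher and 2 lower in whole than depleted D21 cells, 1 higher and 2 lower in NP cells, and 0 in depleted D21 cells. After Benjamini-Hochberg it gave 0, 0 and 0, 1 and 1, and 0. At limma's adjusted threshold 2 members were higher in depleted D21 cells and 0 differed in the difference of the differences. Normexp gave 1 lower in whole than depleted D21 cells, 3 higher in depleted D21 cells and 0 lower in the difference of the differences, where the percentile over detected probes, the filter on every array compared and that on all 12 arrays also gave 0. The last left 1 member higher in whole than depleted D21 cells. With no filter 1 member was lower in depleted D21 cells and 2 were higher in the difference of the differences. The cause of these changes was not tested. The percentile over detected probes moved the median of all genes from -0.06 to 0.13 in whole against depleted D21 cells and from 0.02 to -0.14 between depleted groups, and no filter moved it from -0.08 to -0.27 between whole groups.

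Leaving out each rat gave 12 to 19 higher and 0 to 2 lower members in D21 whole cervix, 1 to 4 higher and 3 to 6 lower in whole than depleted D21 cells, 1 to 4 higher and 11 to 15 lower in NP cells, 2 to 6 higher and 0 to 3 lower in depleted D21 cells, and 2 to 6 higher and 0 to 3 lower in the difference of the differences. In whole cervix the lower count was 2 without NP rat 9 and 1 without depleted D21 rat 2. The 2 members higher in whole NP cells became 1 without whole NP rat 10 or depleted NP rat 5, and 4 without depleted D21 rat 4. Between depleted groups 3 were lower without D21 rat 4 and 1 without NP rat 6. In the difference of the differences 2 were higher without depleted D21 rat 1, whole NP rat 8 or whole D21 rats 6 or 7. No member was lower there without depleted NP rat 7, whole NP rats 8 or 9 or whole D21 rats 6 or 7, and 3 were without depleted D21 rat 4. No paired analysis was possible because the groups compared share no rat numbers. Dim genes, such as Cldn2, Marveld2, Dsg2 and Cgn, were limited by signal over background.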
